A study of Saccharomyces cerevisiae with 24 samples.

Results

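The comparison described here set yeast cells carrying yhp1-13A, an allele of the repressor Yhp1 that Cdk1 cannot phosphorylate at the mutated sites, against wild type. It rested on 6 of the 24 RNA samples of the series, 3 biological replicates of each strain, and on the 6316 of 7126 genes whose mean over the 12 samples of the phosphomutant set was at least 1 TPM, the authors' unit of transcript abundance scaled to gene length and to each sample's total. Members were chosen by strain and by this level, with no use of the difference between strains. Both strains were MATa with ura3, leu2, his3 and met15 deletions. The wild type carried YHP1-13MYC-LEU2 and YOX1-3V5-KanMx, and the mutant carried yhp1-13A-13MYC-LEU2 and, as labelled, no tag at YOX1. The strain yox1-9A carried yox1-9A-3V5-KanMx on the same auxotrophic background, with no LEU2 marker, and the double phosphomutant carried yox1-9A-3V5-KanMx with yhp1-13A-13MYC-LEU2. The strain yhp1del came from the separate deletion set, was deleted for LYS2 where the others lacked MET15, and had YHP1 replaced by LEU2. Cells were collected from asynchronous cultures in rich dextrose medium, so fewer cells at a cell cycle stage and less RNA per cell cannot be told apart. Each group was 1 strain, and the values say nothing of other isolates.

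Yhp1 and its paralog Yox1 are homeodomain repressors that act beside the MADS-box factor Mcm1. They keep early cell cycle box genes, such as those for the MCM2-7 helicase, and a set of mitotic genes off outside their window in the cycle. Cdk1 phosphorylation sends both proteins to the proteasome, so an allele that is not phosphorylated leaves a repressor that persists.

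Samples held 17296953 to 18255340 fragments and 6642 to 6680 genes with at least 1 fragment. The 6 samples did not resemble each other by strain. In wild type replicates 1 and 2 and yhp1-13A replicate 1, genes lay lower relative to the set mean the higher their GC content, with slopes of −0.178, −0.285 and −0.260 log2 units per 10 percentage points. In wild type replicate 3 and yhp1-13A replicates 2 and 3 the slopes were 0.199, 0.169 and 0.246. Across the genes tested, wild type replicate 3 correlated with yhp1-13A replicate 3 at r = 0.994 and with wild type replicates 1 and 2 at 0.976 and 0.968. The side with a negative slope thus held 2 wild type samples and 1 mutant sample, and the other side held 1 and 2. Values within each side are given below beside the results they touch, and fits with the slope as a term are given where they change a call. Mating type genes matched the MATa label, with the a-factor gene MFA2 at 3885 to 6189 TPM and the receptor gene STE2 at 565 to 866 TPM, while the alpha-factor gene MF(ALPHA)1 lay at 0.447 to 1.34 TPM, MF(ALPHA)2 at 8.36 to 13.8 and the alpha-agglutinin gene SAG1 at 17.0 to 23.3. URA3 and MET17 had 0 TPM in all 6 samples. HIS3, labelled as deleted, was read at 33.5 to 58.7 TPM in all 6, and the sources used here write its allele in different ways, so what its values measure in these strains is not settled here.

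No gene passed the test in yhp1-13A against wild type (limma, Benjamini-Hochberg adjusted p below 0.1, 0 of 6316 genes, a background of 0%). The smallest adjusted p was 0.149, for YOX1. With no adjustment, p was below 0.05 for 56 genes with a lower level in the mutant (0.887%) and 11 with a higher one (0.174%), and limma-voom on recovered fragments called 0 genes, with 40 lower and 23 higher at that unadjusted p. The 56 lower genes became 559 without wild type replicate 3, 130 without yhp1-13A replicate 1 and 28 without wild type replicate 1. Most genes had a value below 0, with a median log2 fold change of −0.11 on log2(TPM + 1) and 74.8% of genes lower. Median-of-ratios scaling moved this median to −0.00081, and the split at an unadjusted p below 0.05 to 43 lower and 26 higher. Fold changes below are therefore best read against −0.11. For 178 genes (2.82%) the highest mutant sample was under the lowest wild type sample, and for 34 (0.538%) the lowest mutant sample was over the highest wild type sample. The fold change was under 2-fold for 6303 genes, and the median gene had a 95% interval of 0.42 log2 units to each side.

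**Figure D1:**
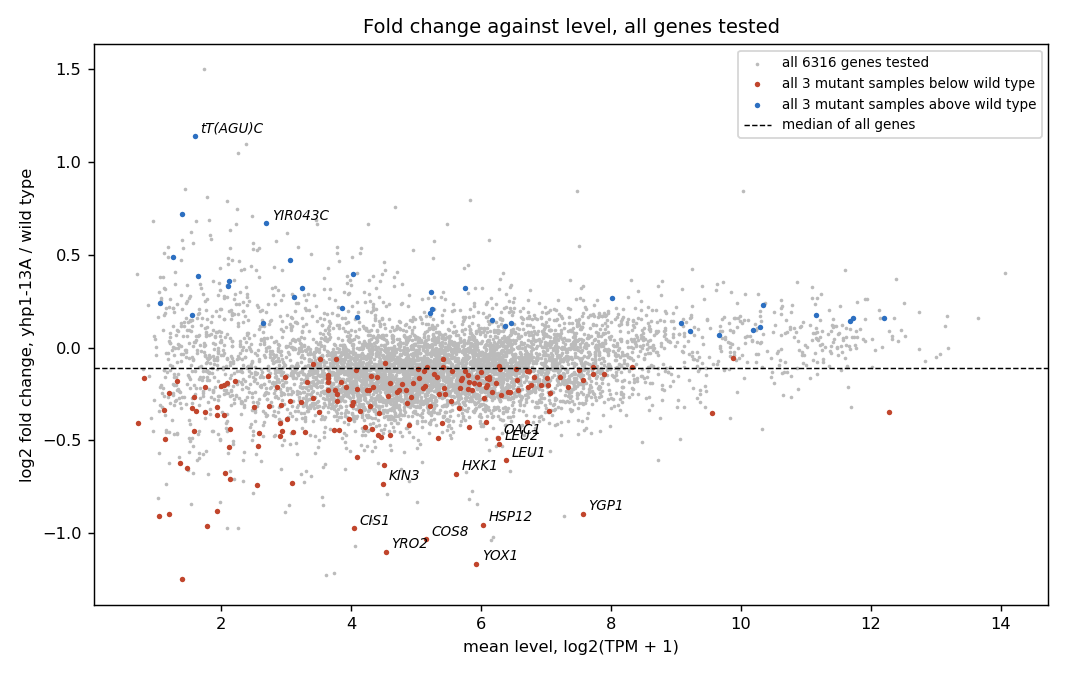
Log2 fold change of yhp1-13A over wild type (vertical axis) against the mean level of the 6 samples in log2(TPM + 1) (horizontal axis), 1 point per gene tested. Red and blue points are the 178 and 34 genes whose groups did not overlap, and the dashed line is the median of all genes at −0.11. No gene passed an adjusted p of 0.1.

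Of the 9 genes at least 2-fold lower, YOX1, YRO2, COS8 and YKL106C-A had groups that did not overlap, as in 2.82% of all genes. YKL106C-A had 4 to 11 fragments per wild type sample and 1 to 2 per mutant sample, so its fold change rests on very few fragments. RPL43A, RPL39, YDL159W-A and YLR198C, named here after their values were seen, were split by sample and not by strain. RPL39, a gene for a small protein of the large ribosomal subunit, lay at 28.7, 31.7 and 2.16 TPM in wild type and at 26.0, 2.32 and 2.69 TPM in yhp1-13A. The low samples were those with a positive GC slope. The other gene of the 9, MPC3, which codes for a mitochondrial pyruvate carrier subunit, lay at 177, 82.6 and 37.3 TPM in wild type and at 61.4, 30.6 and 32.6 TPM in the mutant, and its groups overlapped.

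The targeted gene came first. YHP1 lay at 26.4, 23.1 and 36.8 TPM in wild type and at 17.0, 24.2 and 22.8 TPM in yhp1-13A. The groups overlapped, and the log2 fold change was −0.40 (SE 0.18, unadjusted p = 0.045, adjusted p = 0.91 by limma). The allele is expressed from its own locus with the same 13MYC-LEU2 module as in wild type, so a level near wild type says that the locus was transcribed and does not check the mutated codons. In the 3 yhp1del samples YHP1 was at 0 TPM, beside 37.2, 30.8 and 31.5 TPM in their wild type. The genes beside YHP1 and YOX1 had overlapping groups. RPS18A had a log2 fold change of 0.01, RPS18B of −0.01, PPN1 of −0.24 and TSA1, a peroxiredoxin gene, of 0.27. RPS18A and RPS18B are near-identical copies, so reads may be split between them.

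YOX1 was the gene with the smallest p. It lies on chromosome XIII, 221406 to 222563 (R64, plus strand). It read 80.1, 67.5 and 103 TPM in the wild type samples and 36.2, 38.4 and 34.0 TPM in the yhp1-13A samples, means of 83.4 ± 18 and 36.2 ± 2.2 (SD, n = 3). The groups were far apart, and the mutant samples were close together. The log2 fold change was −1.16 (SE 0.17, 95% interval −1.54 to −0.78, adjusted p = 0.149 by limma). Within the samples of negative GC slope it was −1.002, and within those of positive slope −1.48. The adjusted p was 0.0148 with the sign of the GC slope as a term, to 0.0073 with the slope as a covariate and to 0.0082 in limma-voom with that sign, and it was 0.979 after median-of-ratios scaling. Over all alternatives it ranged from 0.0073 to 0.979, and the log2 fold change from −1.30 to −1.003.

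The tag at the YOX1 locus also differed between these strains. In yox1-9A, whose YOX1 locus ends in 3V5-KanMx as in wild type, YOX1 read 84.4, 67.9 and 85.9 TPM, and in the double phosphomutant, which has that module beside yhp1-13A, 73.7, 64.9 and 91.4 TPM. The contrast of yhp1-13A with yox1-9A was −1.10 (SE 0.17, adjusted p = 0.018 by limma). In the deletion set, yhp1del had YOX1 at 38.6, 48.7 and 39.1 TPM against 94.1, 108 and 85.9 TPM in the wild type of that set, a log2 fold change of −1.17 (SE 0.14, adjusted p = 0.0036 by limma), and its label names no YOX1 tag either. The samples at 34.0 to 48.7 TPM were thus those of the strains with no tag at YOX1, and the double phosphomutant, with yhp1-13A and the tag, was at the wild type level. Between yhp1-13A and wild type the YHP1 allele and the tag cannot be told apart. From its induction experiment, not analysed here, the study reports that induced Yox1 lowered YHP1 and that induced Yhp1 did not lower YOX1.

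**Figure D2:**
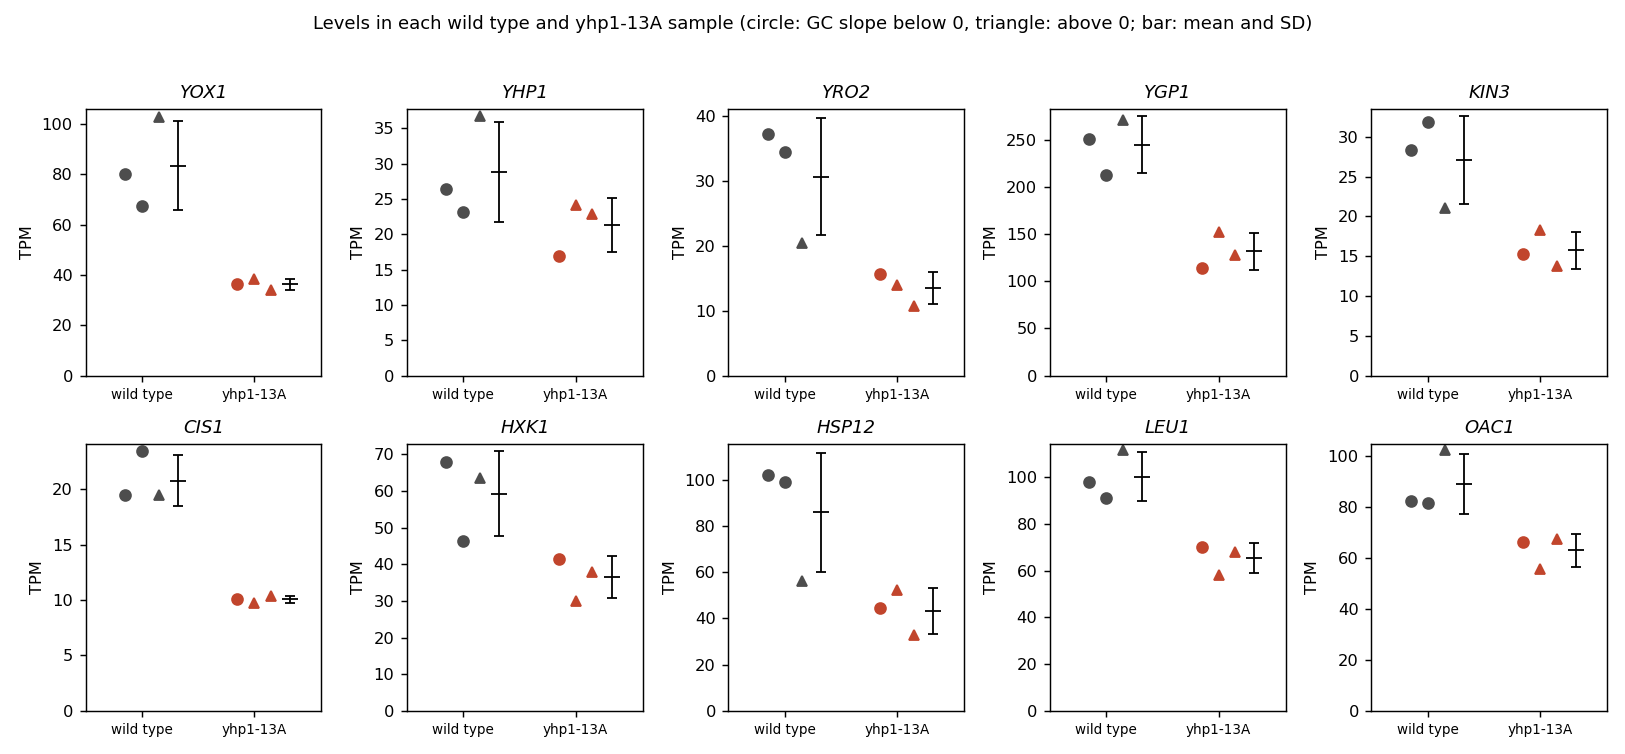
TPM of 10 genes in the 3 wild type and 3 yhp1-13A samples. Circles are samples with a negative GC slope, triangles are samples with a positive one, and bars give mean and SD. YOX1 sits at 67.5 to 103 TPM in wild type and 34.0 to 38.4 TPM in the mutant, while the 2 groups of YHP1 overlap.

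The sequences below show where the binding motif of Yhp1, searched as TAATTAC on both strands within the 500 bases before the start codon, occurs in genes the comparison turns on. It was present in 507 of 5733 tested protein-coding genes (8.84%), in 1 of the 10 lower genes named by rule and in 31 of 313 genes (9.90%) on the study's list of genes changed by induced Yox1 or Yhp1. Capitals mark the match, which reads GTAATTA where it lies on the other strand, and each line is 30 bases read 5′ to 3′ on the gene's strand, from R64. The YOX1 match starts 161 bases before the start codon (chromosome XIII, 221234 to 221263), that of DBF2, a mitotic exit kinase gene, 232 bases before (VII, 667946 to 667975), and that of MCM2, a helicase subunit gene, 169 bases before (II, 177677 to 177706, minus strand). DBF2 and MCM2 were picked from the lists after their matches were seen.
YOX1: cacgaactcttGTAATTAttatatatatat
DBF2: ttttaggaaatGTAATTAttcaaaaagtaa
MCM2: tttaggaaatcTAATTACttaccgaagaaa
A match is a stretch of letters and was not measured as a bound site.

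Among the other lower genes were YRO2, YGP1 and further genes of the stress response. YRO2, which codes for a membrane protein of the heat shock protein 30 family, read 37.3, 34.4 and 20.4 TPM in wild type and 15.7, 14.0 and 10.8 TPM in yhp1-13A. All mutant samples were below all wild type samples, with a log2 fold change of −1.10 (SE 0.24, adjusted p = 0.91 by limma), −1.14 within the samples of negative GC slope and −0.69 within the others. In limma-voom with the sign of the slope it was called (−0.98, adjusted p = 0.0917), in a range of adjusted p from 0.0174 to 0.9999 over alternatives. It was also low in yox1-9A (14.5, 11.6 and 9.94 TPM), and the contrast between both single mutants was 0.15 (SE 0.24). In yhp1del its log2 fold change was 0.45 (adjusted p = 1).

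YGP1, a gene for a secreted cell wall-related glycoprotein that responds to nutrient limitation, read 251, 212 and 272 TPM in wild type and 114, 153 and 128 TPM in yhp1-13A. The lowest wild type sample was well above the highest mutant sample. The log2 fold change was −0.89 (SE 0.22, adjusted p = 0.91 by limma), −1.01 and −0.95 within the GC sides. YGP1 was called with the sign of the GC slope as a term (−1.04, adjusted p = 0.0148), with the slope as a covariate (−1.02, 0.0672) and in limma-voom with that sign (−1.01, 0.0082), out of a range of adjusted p from 0.0082 to 0.9999 over alternatives. It was also low in yox1-9A (79.7, 76.5 and 136 TPM), at −1.37 against wild type (adjusted p = 0.024 by limma). The contrast between both single mutants was 0.47 (SE 0.22).

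Msn2 and Msn4 are the zinc finger activators of the general stress response. Of 30 genes on a list of their targets, 28 were lower, beside 74.8% of all genes. An unadjusted p below 0.05 was found for 6, all 6 lower, beside 0.887% of all genes. The list's median log2 fold change was −0.27, beside −0.11 for all genes, and 26 of the 30 stayed below 0 after median-of-ratios scaling, where the median was −0.16. The list's median differed between the GC sides, with a value of −0.32 within the samples of negative slope and 0.02 within the others, beside −0.09 and 0.01 for all genes. HSP12, a membrane-stabilising small heat shock gene, read 102, 99.2 and 56.3 TPM in wild type and 44.3, 52.3 and 32.9 TPM in the mutant. The gap between the groups was small, and the log2 fold change was −0.95 (SE 0.29, unadjusted p = 0.0067). HXK1, a hexokinase gene, read 68.0, 46.2 and 63.6 TPM in wild type and 41.5, 30.1 and 37.9 TPM in yhp1-13A, without overlap, at −0.68 (SE 0.18, unadjusted p = 0.0023). HSP26, a small chaperone gene, was at −0.59, HOR7 at −0.35 and SPI1, a cell wall protein gene, at −0.35. The lowest value was −1.03 for MPC3 and the highest 0.15 for SOL4, a 6-phosphogluconolactonase gene. The stress response element, searched as AGGGG on both strands, was in 28 of the 30 upstream regions (93.3%), beside 34.5% of all. The list was chosen as Msn2 and Msn4 targets, so this share describes the list and not the mutant. Over all genes with an upstream region, the median log2 fold change was −0.117 with the element and −0.114 without it.

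KIN3 and CIS1 had groups that did not overlap. KIN3, a kinase gene of the NIMA family that belongs to the mitotic CLB2 cluster, read 28.4, 31.8 and 21.1 TPM in wild type and 15.2, 18.3 and 13.7 TPM in the mutant. Its log2 fold change was −0.73 (SE 0.19, unadjusted p = 0.0022), −0.94 and −0.39 within the GC sides. In yox1-9A KIN3 read 19.3, 21.2 and 14.3 TPM, at −0.54 against wild type. CIS1 read 19.4, 23.4 and 19.5 TPM in wild type against 10.1, 9.77 and 10.3 TPM. Its log2 fold change was −0.97 (SE 0.22, unadjusted p = 0.00095), with −1.01 and −0.89 within the GC sides. In yox1-9A CIS1 lay at 18.2 to 29.9 TPM, and the contrast of both single mutants was −1.08 (SE 0.22, adjusted p = 0.12 by limma).

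The remaining lower genes named by rule were COS8 and YML119W, beside LEU1 and LEU2 below. COS8, of a subtelomeric family of near-identical genes among which reads may be split, read 52.8, 45.1 and 41.0 TPM against 24.4, 16.2 and 26.9 TPM, a log2 fold change of −1.03 (SE 0.26). Another member, COS5, went the other way, at 7.73, 6.80 and 7.73 TPM in wild type and 10.02, 9.16 and 9.38 TPM in yhp1-13A (0.32, SE 0.13). YML119W had a log2 fold change of −0.49.

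Few of the 10 higher genes were well-expressed coding genes. The transfer RNA gene tT(AGU)C read 1.30, 0.61 and 0.66 TPM in wild type and 4.48, 3.10 and 1.91 TPM in the mutant. Its log2 fold change was 1.14 (SE 0.36, unadjusted p = 0.0090 by limma). It rests on only 1 to 2 fragments per wild type sample and 3 to 7 per mutant sample. HIS4, a histidine biosynthesis enzyme gene, lay at 35.8, 32.4 and 30.1 TPM in wild type and at 42.1, 40.8 and 38.3 TPM in the mutant (0.30, SE 0.15). The snoRNA genes snR82 and snR85 were at 0.32 and 0.39, and YEL074W, COS5, YIR043C, YDR442W, YJR023C and YJR027W lay between 0.32 and 0.72. YIR043C also had a positive value in yhp1del (1.14, adjusted p = 1).

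LEU1, LEU2 and OAC1 were lower in yhp1-13A than in wild type, and both strains carry a LEU2 marker. Leucine is made by Leu4 and Leu9, Leu1 and Leu2 in turn, and Leu3 activates several of their genes when the pathway intermediate alpha-isopropylmalate builds up. LEU1, the isopropylmalate isomerase gene, read 97.8, 91.0 and 112 TPM in wild type and 70.1, 58.0 and 68.0 TPM in yhp1-13A. LEU2, the next enzyme, read 88.1, 76.6 and 107 TPM against 58.3, 62.8 and 65.9 TPM. OAC1, a mitochondrial carrier that exports alpha-isopropylmalate, read 82.5, 81.8 and 102 TPM against 66.1, 55.6 and 67.5 TPM. None of these groups overlapped.

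The log2 fold change was −0.61 for LEU1 (SE 0.15), −0.52 for LEU2 (SE 0.14) and −0.49 for OAC1 (SE 0.13). By limma their unadjusted p was 0.0015, 0.0028 and 0.0031, and their adjusted p was 0.91. LEU2 was called in limma-voom with the sign of the GC slope (−0.57, adjusted p = 0.0763), in a range of adjusted p from 0.0763 to 0.9999 over alternatives. LEU1 was at −0.42 within the samples of negative GC slope and −0.82 within the others, LEU2 at −0.49 and −0.72, and OAC1 at −0.31 and −0.73. Of 12 genes of leucine and branched-chain synthesis, 3 had an unadjusted p below 0.05, all lower, beside 0.887% of all genes, and 4 had mutant samples entirely below wild type, beside 2.82%, the other one being LEU3 (35.3, 35.9 and 34.4 TPM against 32.1, 31.7 and 32.9 TPM). The median of the 12 was −0.13, beside −0.11 for all genes. It was −0.01 within the samples of negative GC slope and −0.33 within the others, beside −0.09 and 0.01 for all genes, and −0.15 with the sign of the slope as a term, beside −0.04. ILV2, ILV3 and ILV5, enzymes shared with isoleucine and valine, had log2 fold changes of −0.08, −0.04 and 0.02.

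These genes were also measured in the deletion of YHP1, in separate samples, and the difference from the fold changes above was not tested. In yhp1del against its own wild type, LEU1 read 84.7, 82.8 and 71.8 TPM against 134, 133 and 115 TPM, a log2 fold change of −0.67 (SE 0.11, adjusted p = 0.062 by limma). LEU2 read 59.95, 56.0 and 55.7 TPM against 120, 125 and 134 TPM (−1.13, adjusted p = 6.4e-05 by limma). OAC1 was at −0.67 (adjusted p = 0.14), and the 4 deletion values of LEU1, LEU2, OAC1 and BAT1, a transaminase gene, came from groups that did not overlap, as did those of 1.36% of genes below and 1.68% above wild type in that set. In that comparison 6 of 6311 genes were lower (0.0951%) and 2 higher (0.0317%) at an adjusted p below 0.1. The lower genes include LYS2, deleted in yhp1del, and the higher ones MET17, deleted in wild type. In both sets the lower strain has no tag at YOX1, and yhp1del has LEU2 as a deletion marker and not behind a tagged gene. Between yhp1del and its wild type the YHP1 allele, the tag and the marker's context cannot be told apart. The double phosphomutant, with yhp1-13A and the tag, read LEU2 at 58.7, 64.9 and 68.7 TPM and OAC1 at 64.9, 68.6 and 66.7 TPM. Against wild type it had LEU1 at −0.35, LEU2 at −0.48 and OAC1 at −0.40 (adjusted p = 0.83 each by limma). The cause of these differences was not tested.

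**Figure D3:**
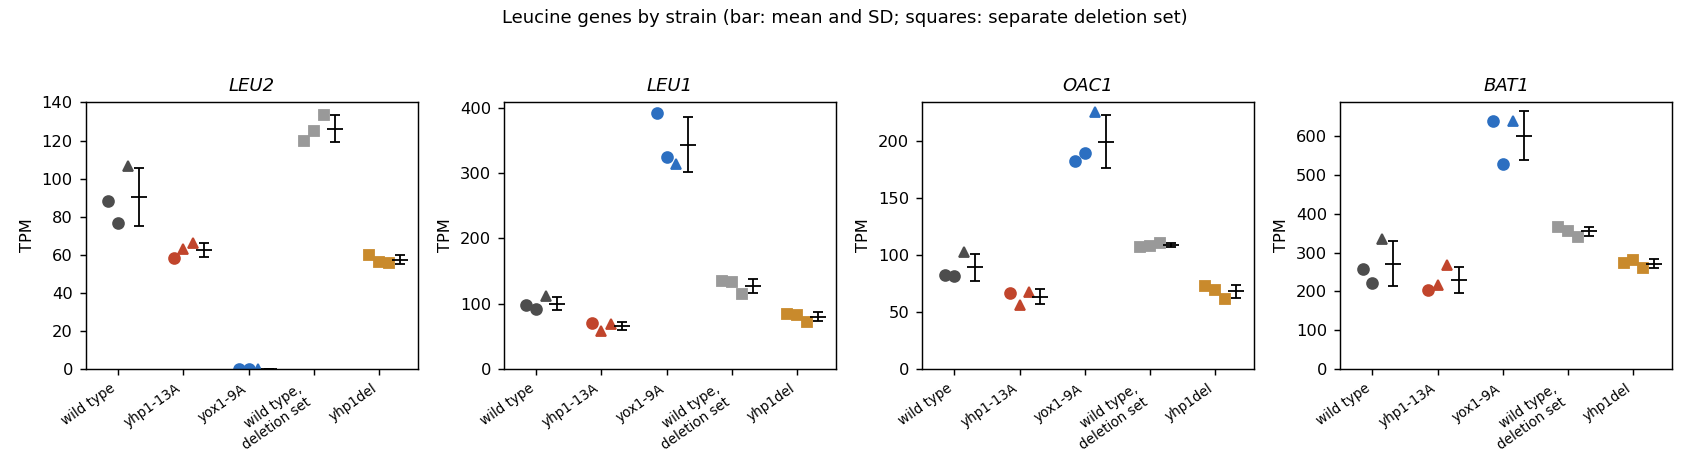
TPM of LEU2, LEU1, OAC1 and BAT1 in wild type, yhp1-13A and yox1-9A, and, as squares, in wild type and yhp1del of the deletion set. Bars give mean and SD. LEU1 is at 58.0 to 70.1 TPM in yhp1-13A, 91.0 to 112 TPM in wild type and 314 to 393 TPM in yox1-9A, which has no LEU2.

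The Leu3 site, searched on both strands as CCGG, any 2 bases and CCGG again in the 500 bases before the start codon, was found for 16 of 5733 genes (0.279%) and for 5 of the 12 leucine and branched-chain genes. The lines below show the match in capitals with its flanks, on the gene's strand of R64, because genes with and without lower values in yhp1-13A both hold it. LEU1 has it 217 bases before the start codon (chromosome VII, 478850 to 478879, minus strand), LEU2 198 bases before (III, 91116 to 91145), BAT1 147 (VIII, 517375 to 517404), ILV2 468 (XIII, 483606 to 483635) and ILV5 377 (XII, 839611 to 839640, minus strand). The LEU2 line is the reference locus, and these strains carry LEU2 as a marker.
LEU1: aacgaaaattCCGGGACCGGcgaaatttgc
LEU2: ggtgagagcgCCGGAACCGGcttttcatat
BAT1: attgtgtttgCCGGTACCGGcctttaagct
ILV2: ccggagcctgCCGGTACCGGcttggcttca
ILV5: gcggtctcctCCGGTACCGGttctgccacc
LEU1 and LEU2 lay at −0.61 and −0.52 in yhp1-13A, while BAT1, ILV2 and ILV5, which also hold a match, lay at −0.23, −0.08 and 0.02. OAC1 had no match to these letters in its window.

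The direct contrast with yox1-9A called 13 genes lower in yhp1-13A (0.206% of 6316) and 6 higher (0.095%). With the replicate number as a block, the counts were 32 and 27. Replicate 2 of yhp1-13A correlated no better with its own number in yox1-9A (0.12) than with another (0.14), so this pairing is uncertain. LEU2, absent from the labelled genotype of yox1-9A, read 0.045, 0.044 and 0.043 TPM there, and LEU1 393, 325 and 314 TPM, so LEU1 was lower in yhp1-13A by 2.38 on the log2 scale (SE 0.15, adjusted p = 7.2e-06 by limma). OAC1 was at −1.64 (adjusted p = 7.7e-05), BAT1 at −1.39 (0.0065), and LEU4, the first committed enzyme, and ILV3 were also called lower. DIC1, a mitochondrial dicarboxylate carrier gene, was at −1.47 (adjusted p = 0.0065). HIS3 read 185, 226 and 115 TPM in yox1-9A, 36.8, 48.3 and 33.6 TPM in yhp1-13A and 49.7, 58.7 and 33.5 TPM in wild type, a contrast of −2.08 (adjusted p = 0.0065). Its neighbour YOR203W was lower as well. HCM1, the gene of an S-phase forkhead activator, lay at 50.1, 41.3 and 46.6 TPM in yhp1-13A and 93.0, 84.9 and 97.0 TPM in yox1-9A. Wild type had HCM1 at 40.6, 42.0 and 53.6 TPM, so the yox1-9A samples stood apart from both. BUD31, near HCM1 on chromosome III, was also called lower, at −1.12 (adjusted p = 0.015 by limma). It read 10.6, 8.03 and 9.92 TPM in yhp1-13A and 22.6, 19.8 and 23.1 TPM in yox1-9A. Wild type had BUD31 at 7.23, 8.55 and 8.43 TPM. The cause of the higher HCM1 and BUD31 levels in yox1-9A was not tested.

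Among the gene groups that Yhp1 and Yox1 are known to repress, no gene passed the test in yhp1-13A alone. All 6 MCM2-7 helicase genes were lower, beside 74.8% of all genes. They ranged from −0.25 for MCM5 to −0.04 for MCM3, with a median of −0.24 and 0 genes at an unadjusted p below 0.05. MCM5 read 35.01, 34.9 and 31.5 TPM in wild type and 32.1, 23.8 and 29.3 TPM in the mutant. Its groups overlapped, and the 95% interval of the difference was −0.55 to 0.05. After median-of-ratios scaling, 5 of the 6 MCM2-7 genes stayed below 0, beside 50.2% of all genes, with a median of −0.12. Within the GC sides the median was −0.10 and −0.09, and with the sign of the slope as a term −0.09, beside −0.04 for all genes. Among 9 early cell cycle box genes, SWI4, a G1/S activator gene, was lowest at −0.32 and CLN3, the G1 cyclin gene, highest at 0.18, and 0 had an unadjusted p below 0.05.

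Of the 20 genes of the CLB2 cluster, which peak in mitosis, 2 had an unadjusted p below 0.05, KIN3 and DBF2, both lower, beside 0.887% of all genes. DBF2 read 36.2, 31.6 and 30.4 TPM in wild type and 27.6, 23.8 and 21.5 TPM in the mutant, at −0.42 (SE 0.17, unadjusted p = 0.028). CDC20, the anaphase activator gene, named after its value was seen, was at −0.41 (unadjusted p = 0.070), AIM20 was highest at 0.05, and the cluster's median was −0.18, or −0.07 after scaling. It was −0.04 and −0.07 within the GC sides. With the sign of the slope as a term it was −0.03, beside −0.04 for all genes. In that fit 12 of the 20 were below 0, beside 64.2% of all genes. All 9 genes of the early anaphase release network were below 0, beside 74.8% of all genes. They ranged from −0.53 for SLK19 to −0.07 for ESP1, the separase gene, with 0 at an unadjusted p below 0.05. After scaling 8 stayed below 0, beside 50.2% of all genes. The median of the 9 was −0.26 before scaling. Within the samples of negative GC slope that median was −0.25, and within the others −0.08. With the sign of the slope as a term it was −0.06, with 6 of 9 below 0, beside 64.2% of all genes. Of 11 genes of the mitotic exit network, DBF2 was lowest and BUB2, a checkpoint gene, highest at 0.18. The median was −0.14, and −0.18 and 0.0025 within the GC sides.

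Condensin genes lay between −0.34 for SMC2 and −0.16 for SMC4, with 0 of 5 at an unadjusted p below 0.05. Their median was −0.22, and −0.08 and −0.05 within the GC sides. The 26 G1/S genes had a median of −0.17, and −0.11 and 0.03 within the GC sides, with 0 genes at an unadjusted p below 0.05. The 17 glycolysis genes lay at a median of 0.12 and at −0.14 within the samples of positive GC slope, so the sign differed with the samples compared.

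Genes of the citric acid and methylcitrate cycles had 3 of 20 members at an unadjusted p below 0.05, all lower, beside 0.887% of all genes. PDH1, a gene of propionate breakdown by the methylcitrate cycle, read 11.4, 7.81 and 9.59 TPM in wild type and 6.23, 3.83 and 6.30 TPM in the mutant, without overlap (−0.73, SE 0.22, unadjusted p = 0.0063). ACO1, the aconitase gene, was at −0.40, and the other one, CIT2, is described below. The list's median was −0.13, beside −0.11 for all genes. COX5B, the hypoxic form of a cytochrome oxidase subunit, was at −0.43 and its aerobic counterpart COX5A at 0.05. Of 7 a-specific genes, which Mcm1 activates in MATa cells, 2 had an unadjusted p below 0.05, both lower, beside 0.887% of all genes. These were MFA2 at −0.35 and ASG7 at −0.48, both without overlap, as in 2.82% of all genes, while STE2, STE6, AGA2 and BAR1 lay between 0.01 and 0.05. The motif TAATTAC was in 5 of the 7 upstream regions, beside 8.84% of all. Binding was not measured, and a match does not say which protein, if any, binds there.

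**Figure D4:**
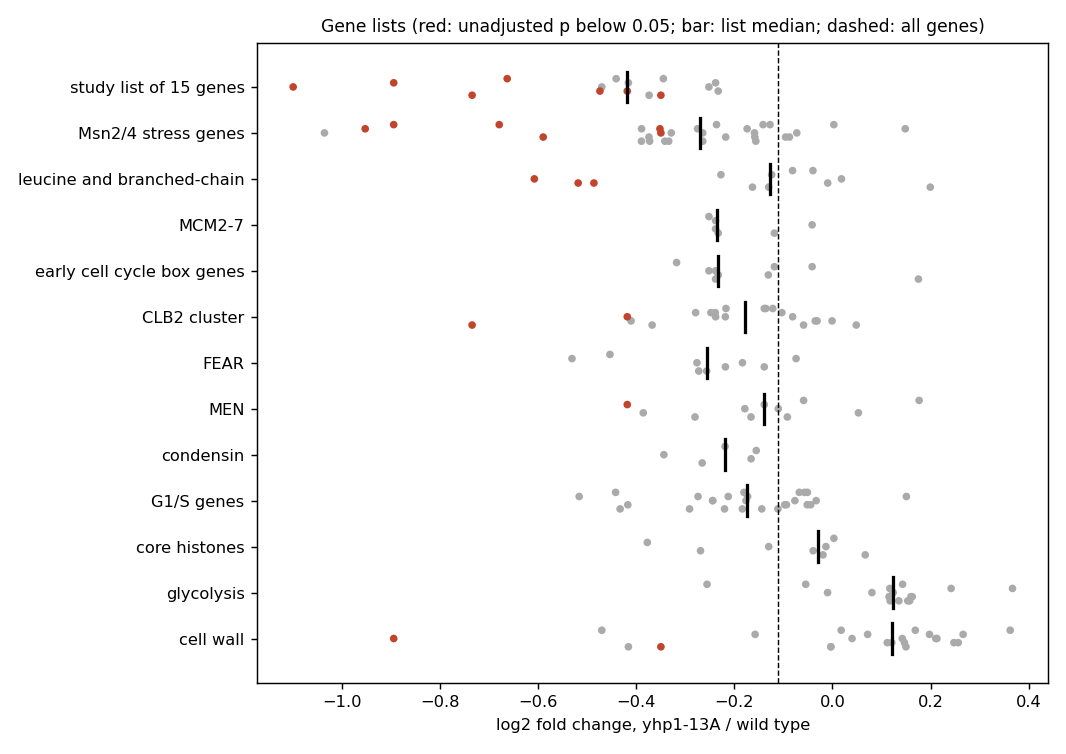
Log2 fold change of yhp1-13A over wild type (horizontal axis) for each gene of 13 lists. Red points have an unadjusted p below 0.05, bars are list medians and the dashed line is the median of all genes at −0.11. The 15 genes used from the study's list have their median at −0.42 and the Msn2/4 list at −0.27.

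The study listed genes that were lower in the double phosphomutant and higher in the double deletion, and 15 genes of that list, not the whole of it, were used here. That choice used the same wild type samples, so the values in yhp1-13A are not independent evidence of its direction. All 15 were lower in yhp1-13A, beside 74.8% of all genes. Their median log2 fold change was −0.42 beside −0.11 for all genes, and 7 had an unadjusted p below 0.05, beside 0.887%. The lowest was YRO2 and the highest MCM2 at −0.23. The median was −0.37 within the samples of negative GC slope and −0.41 within the others, and from −0.64 to −0.32 with each sample left out. Beside the genes already described, CIT2, the peroxisomal citrate synthase gene, read 122, 77.5 and 116 TPM against 65.7, 48.2 and 85.5 TPM (−0.66, SE 0.23), with overlap. PIG1, a regulatory subunit gene of glycogen phosphatase, read 7.77, 8.51 and 6.82 TPM against 6.07, 4.30 and 5.50 TPM (−0.47, SE 0.16), without overlap. The same 15 genes had medians of −0.67 in yox1-9A and −0.83 in the double phosphomutant, each against the same wild type samples. In yhp1del their median was 0.09, with 5 of 15 lower, beside 2758 of 6275 genes. The list was chosen on the double phosphomutant itself and on the double deletion of the deletion set. The medians of −0.83 and 0.09 are therefore not independent of that choice.

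The study's list of genes changed by induced Yox1 or Yhp1, from an experiment not analysed here, was used in a copy of 325 genes that may be shorter than the study's own, and 321 of them were tested. Their median was −0.12, beside −0.11 for all genes. At an unadjusted p below 0.05, 15 were lower and 0 higher, beside 0.887% and 0.174% of all genes. Mutant samples lay entirely below wild type for 17, beside 2.82% of all genes. In yhp1del the median was 0.05.

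Outside YOX1, LEU1 and LEU2, the lower genes named by the size of their p had fold changes from −0.04 for CIS1 to 0.45 for YRO2 in the deletion of YHP1. YGP1 had a log2 fold change of 0.11 in yhp1del, KIN3 of 0.16, HXK1 of 0.10 and COS8 of 0.10, each with an adjusted p of 1. The 10 higher genes ranged from −0.43 for YDR442W to 1.14 for YIR043C, with tT(AGU)C at 0.78 and YJR027W at 0.75. The YJR027W value depends mostly on 1 yhp1del sample, at 10.6 TPM beside 2.63 and 3.13, with wild type at 2.06 to 2.55. The gene tT(AGU)C read 3.15, 1.29 and 0 TPM in that wild type and 3.76, 1.93 and 2.45 TPM in yhp1del, with overlap. The sets were normalised and tested apart, and the difference between the fold changes was not tested.

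**Figure D5:**
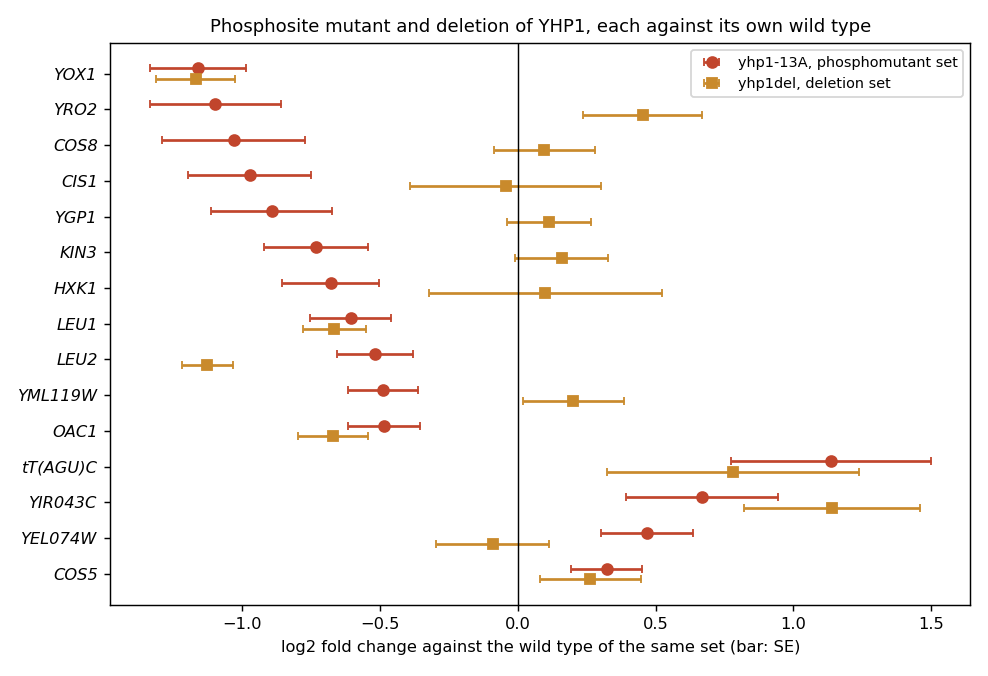
Log2 fold change with SE (horizontal axis) of 15 genes named by rule in yhp1-13A (circles) and in yhp1del (squares), each against the wild type of its own set. YOX1, LEU1, LEU2 and OAC1 are below 0 in both, while YRO2 is at −1.10 in yhp1-13A and 0.45 in yhp1del.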

How the data were processed

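Reads of 24 libraries were aligned by the authors to R64-1-1 with STAR 2.5.3a and counted per exon with featureCounts 1.5.2 (mapping quality filter as the study states). The authors deposited TPM per gene and sample, 7126 genes, with replicates kept apart and each sample scaled to gene length and total. The labels name polyA depletion and the methods name poly-A purification. The number of sample columns left unused was 0.

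Values were analysed as log2(TPM + 1), on which a fold change of a low gene is understated, for genes with a mean of at least 1 TPM across a set's 12 samples. The 4 groups were fitted together in limma 3.58.1 (R 4.3.3, eBayes with a trend), and the Benjamini-Hochberg adjustment ran over the 6316 genes, two-sided. Genes below 0.1 were called. With 3 against 3 samples, an exact permutation test cannot go below 0.1. Fragments were recovered from TPM and gene length (100% of values whole within 0.01) for limma-voom only. The GC slope is the regression of each sample's deviation from the set mean on gene GC content, known for 91.0% of tested genes. The fit was tested on simulated data with noise drawn independently for each gene and sample. That simulation held no GC slopes, so it does not show how the fit handles them. Residuals of yhp1-13A and yox1-9A samples of the same replicate number correlated at 0.52, 0.12 and 0.65. For replicate 2 the value with another number was 0.14, so whether the numbers pair these strains is uncertain. They were not taken to pair yhp1-13A with wild type. Alternatives changed the pseudocount (0.1), the filter, the scaling, the test, the GC terms, the block and the samples. Values within GC sides were added after the data were seen.

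Genes were named by rule: the strain loci and the neighbours of YHP1 and YOX1, the 10 lower and 10 higher genes of smallest p whose groups did not overlap, genes called in at least 2 alternatives, up to 5 genes in each direction called against yox1-9A, and list members with an unadjusted p below 0.05 or at the ends of a list, and the members of the 15-gene, MCM2-7, mitotic exit and early anaphase lists. HCM1, BUD31, LEU3, LEU4, ILV2, ILV3, ILV5, COX5A and YOR203W were named after their values were seen. Results for 1 gene list are not reported here. The members and lists were chosen with earlier results of these data known. Gene positions and upstream sequences are from RefSeq R64, where 6048 of 7126 identifiers matched.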

Additional observations from a re-analysis of the deposited data

Results flagged for a closer look

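Up to 5 genes in each direction were taken from those whose level differed between the single phosphomutants in a direct test (limma, yhp1-13A against yox1-9A, adjusted over 6316 genes). LEU1 (−2.38), OAC1 (−1.64), HIS3 (−2.08), BAT1 (−1.39) and DIC1 (−1.47) were lower in yhp1-13A on the log2 scale. LEU2 (5.92), YIR042C (1.8), HTZ1 (0.59), tL(CAA)C (1.52) and YFR012W-A (1.25) were higher. The value for LEU2 rests on about 0.04 TPM in yox1-9A, which lacks the marker, and the transfer RNA gene tL(CAA)C is listed at 0 TPM in all 3 yox1-9A samples, so both fitted values depend on the pseudocount and are no bounds. HTZ1, the gene of the histone variant H2A.Z, had adjusted p = 0.018. Groups of 3 samples were not tested for outliers.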

How the results depend on the processing

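In yhp1-13A against wild type, 0 genes were called, and 0 in each of 6 fits that left out 1 sample. At an unadjusted p below 0.05, however, those fits gave 28 lower genes without wild type replicate 1, 130 without yhp1-13A replicate 1 and 559 without wild type replicate 3, beside 56. The count of calls was 1 with no filter (YDR210W-B, a Ty gene with many copies, at 0.436 to 0.716 TPM in wild type and up to 0.0682 in yhp1-13A), 2 with the GC slope or its sign in the fit (YOX1 and YGP1) and 4 in limma-voom with that sign (YOX1, YRO2, YGP1 and LEU2). The replicate block gave 3 calls (YOX1, YRO2 and HSP12, each at adjusted p = 0.0174), but the replicate numbers did not pair the strains, with residual correlations of 0.55, 0.01 and 0.67, 1 of them under the 0.1 asked of every pair. Against yox1-9A every pair was over it, though replicate 2 correlated at 0.12 with its own number and 0.14 with another. There, 19 genes were called, 29 with no filter, 59 with the replicate block, 74 with the sign of the GC slope, and 11 to 15 with a sample left out (11 without yox1-9A replicate 3, 12 without yhp1-13A replicate 3). Of 770 values over 41 named genes, 749 kept direction and side of the threshold, 11 passed it and 10 changed sign, in 3 genes near 0. With a sample left out, LYS2 ranged from −0.078 (without yhp1-13A replicate 1) to 0.11, RPS18A from −0.050 (without wild type replicate 3) to 0.044, and RPS18B from −0.030 to 0.020 (without wild type replicate 2). RPS18B was 0.11 in median-of-ratios scaling and in limma-voom, 0.0020 and 0.0072 with the GC sign and slope, and 0.040 in limma-voom with that sign. The cause of these differences was not tested. Depth was near equal. The median SE over genes was 0.19, and 0.12 with the sign of the GC slope in the fit.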
